A study of Rattus norvegicus with 6 samples.

Results

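The Reg genes encode small secreted C-type lectins. Reg1a, Reg3a, Reg3b and Reg3g were followed here in single-cell RNA sequencing of rat pancreas, as 4 of the 32883 genes counted. The 4 genes were chosen by their levels in these same cells, so those levels are given as a description, without a test. The members are read in acinar cells, which were taken as cells whose UMIs (unique molecular identifiers, 1 per captured transcript) came to at least 20% from the digestive enzyme genes Prss1, Prss2, Ctrb1, Cela3b, Clps and Pnlip, and then in ductal and islet cells and as free RNA. This gate held 2502 of the 75201 cells kept. All rats were male Wistar rats. The young rats were 2 months old, the old rats were 20 months old after 18 months on a normal diet, and the HFHF-old rats were 20 months old after 18 months on a high-fat high-fructose diet. Each group held 2 rats with 1 library each, and rats are the replicates.

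Reg proteins are made by the exocrine pancreas and the gut. In the pancreas, Reg1a (pancreatic stone protein) and Reg3b (pancreatitis-associated protein) are secreted by acinar cells and are best known for their increase during pancreatitis, while Reg3b and Reg3g of the gut epithelium bind and kill bacteria. Their transcription is known to respond to cytokines of the IL-6 and IL-22 families through STAT3.

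The libraries held 69040809 to 136227871 UMIs in the cells kept, with 56 to 666 acinar cells per rat. The islet isolation, with collagenase digestion and a density gradient, set the cell types that entered each library, so cell numbers are not compared. The HFHF-old replicate 2 library had the 56 acinar cells and the fewest acinar UMIs (302750, against 1485047 to 13567927 in the other rats). Of 77386 distinct barcodes, 636 (0.822%) occurred in more than 1 library. The gate was checked with genes that it did not use: of the 18 other digestive enzyme and granule protein genes present in the files, 16 to 18 were higher in acinar cells than in the other cells of the same rat. The insulin gene Ins1 was read in acinar cells at 959, 4630, 29491, 3130, 1691 and 0 CPM (UMIs of the gene scaled to 1000000 UMIs of the cells summed), listing both young rats first, then both old and both HFHF-old rats, replicate 1 before replicate 2. The leukocyte gene Ptprc lay at 59.9 and 185 CPM in acinar cells of HFHF-old rats and between 29.6 and 44.0 in the other 4. The collagen gene Col1a1 was at 92.7 in young replicate 1 and 101 in HFHF-old replicate 1, the rats with the most Reg3a and Reg3b, and between 6.73 and 16.6 in the other 4. The duct keratin gene Krt19 was at 0 in 5 of 6 rats and at 0.27 in old replicate 1. Levels without acinar cells that carried Ptprc, hormone or fibroblast RNA are given with Reg3b, and the part of insulin RNA in the values below was not tested.

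In the RefSeq annotation of the assembly GRCr8, the members lie next to each other on chromosome 4 in the order Reg3b, the pseudogene Reg3b-ps1, Reg3a, Reg1a and Reg3g. The 120 bases before the start of each gene are shown from the RefSeq promoter table of the same assembly because the members share a locus. The capitals mark CCCTCC and ATAAAA, the longest words (6 letters) present in all 4 stretches. Reg3a (chr4:112430304-112430423, plus strand; the downstream of its 2 listed starts), Reg3b (chr4:112419656-112419775, plus strand), Reg3g (chr4:112484739-112484858, minus strand) and Reg1a (chr4:112450346-112450465, plus strand) read 5′ to 3′ on the gene strand as follows.
Reg3a: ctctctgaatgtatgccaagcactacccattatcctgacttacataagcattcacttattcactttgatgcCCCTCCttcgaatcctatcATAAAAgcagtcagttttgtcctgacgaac
Reg3b: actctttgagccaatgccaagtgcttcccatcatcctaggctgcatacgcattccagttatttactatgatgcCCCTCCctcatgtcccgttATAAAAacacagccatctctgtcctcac
Reg3g: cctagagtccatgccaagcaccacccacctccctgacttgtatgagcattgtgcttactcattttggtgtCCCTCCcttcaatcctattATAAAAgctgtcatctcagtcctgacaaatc
Reg1a: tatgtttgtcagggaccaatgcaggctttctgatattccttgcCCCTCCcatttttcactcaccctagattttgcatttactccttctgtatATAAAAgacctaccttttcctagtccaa

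ATAAAA began 28 to 31 bases before the start in all 4 genes, at positions -30, -28, -31 and -28 for Reg3a, Reg3b, Reg3g and Reg1a. It occurred on either strand in 9.11% of the 33469 windows of the same length in the table. CCCTCC began at positions -49, -47 and -50 in Reg3a, Reg3b and Reg3g and at -77 in Reg1a, and occurred in 20.9% of all windows. The 3 Reg3 genes also shared ATGCCAAG, at positions -108, -107 and -110. This word was not found in the Reg1a window and occurred in 0.541% of all windows on either strand. A match is a description of the letters, not a site. In global alignments of the 120 bases, Reg3a was 73.8% identical to Reg3g and 68.5% to Reg3b, while Reg1a was 48.9% to 51.4% identical to the 3 Reg3 genes.

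Reg1a was the most abundant member in acinar cells of every rat, in UMIs, which count 1 per captured transcript whatever its length. Its level was 5612 and 4984 CPM in young rats, 2259 and 905 in old rats, and 3087 and 1691 in HFHF-old rats. Both young rats lay above all 4 older rats, and the old and HFHF-old rats overlapped. The young rats were also highest at enzyme shares of 10% and, without HFHF-old replicate 2, of 40%. Within bins of enzyme share this order did not always hold. At 15% to 20%, old replicate 2 was at 5898 (56 cells), against 3897 and 3245 in young rats. At 25% to 30%, HFHF-old replicate 1 was at 10858 (28 cells), against 6468 and 3967. At the 20% gate the mean was 5298 ± 444 (SD, n = 2) for young rats, 1582 ± 957 for old rats and 2389 ± 987 for HFHF-old rats. Fewer transcripts per cell and fewer cells with transcripts cannot be told apart in these sums, and the cells are given separately below. The old mean was 0.299 times and the HFHF-old mean 0.451 times the young mean, or log2 ratios of -1.74 and -1.15, and the HFHF-old mean was 1.51 times the old mean, a log2 ratio of 0.59. This last ratio was 1.40 without old replicate 1, 0.08 without old replicate 2 and 0.10 without HFHF-old replicate 1. Between rats with the same replicate number, Reg1a was higher in the HFHF-old than in the old rat for both numbers. The labels do not say that this number pairs the rats, and old replicate 1 lay above HFHF-old replicate 2.

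Reg3a, a secreted lectin of the same locus, was lower and did not separate the groups. It was read at 608 and 111 CPM in young, 202 and 119 in old, and 360 and 112 in HFHF-old rats. All 3 groups overlapped. Young replicate 1 decided the order against the young rats: without it, the log2 ratio of old to young rats went from -1.17 to 0.53 and that of HFHF-old to young rats from -0.61 to 1.09. The gate turned the order too. At a 10% enzyme share old replicate 2 rose to 655 CPM, and the log2 ratio of old to young rats was 0.34. That of HFHF-old to old rats went from 0.56 to -0.97. At a 40% share, without HFHF-old replicate 2, the log2 ratio of old to young rats was 0.50 and that of HFHF-old to young rats 1.49. Old replicate 2 was then at 0 CPM over 25 cells.

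Reg3b was read at 854 and 72.6 CPM in young, 118 and 95.6 in old, and 521 and 215 in HFHF-old rats. Both HFHF-old rats lay above both old rats, and the mean of 368 ± 216 (SD, n = 2) was 3.45 times the old mean of 107 ± 15.5. The young rats spanned all others, with 1 above and 1 below the remaining 4, and without young replicate 1 the log2 ratio of old to young rats went from -2.12 to 0.55 and that of HFHF-old to young rats from -0.33 to 2.34. With possible doublets left out (acinar cells with a Ptprc UMI, at least 2% hormone UMIs or at least 2 fibroblast markers), Reg3b was 192 and 49.8 CPM in young, 125 and 59.6 in old, and 522 and 350 in HFHF-old rats. Both HFHF-old rats then lay above the other 4, and the log2 ratio of HFHF-old to young rats was 1.85 (for Reg3a 0.87). HFHF-old replicate 2 then had 44 cells, and over all its acinar cells 61 of 65 Reg3b UMIs lay in 5 cells. The separation of HFHF-old and old rats depended on the gate and on few cells. With cells down to a 10% enzyme share included, the log2 ratio went from 1.79 to -0.01, as old replicate 2 rose to 524 CPM. At a 40% share, without HFHF-old replicate 2, the log2 ratio was 2.58, and that of HFHF-old to young rats was 2.75. There the old rats were at 156 and, over 25 cells of old replicate 2, 0 CPM, against 467 in HFHF-old replicate 1. Without the 5 acinar cells of each rat that held the most Reg3a and Reg3b UMIs, Reg3b was 91.1 and 2.84 in old and 261 and 14.6 in HFHF-old rats, and the groups overlapped. The log2 ratio was then 1.55, and each HFHF-old rat stayed above the old rat of the same replicate number. In old replicate 2 those 5 cells held 138 of 142 Reg3b UMIs.

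Reg3g, the remaining Reg3 lectin, had few UMIs in acinar cells. The 2 young rats had 20 UMIs and 1 UMI, the old rats 1 and 0, and the HFHF-old rats 22 and 0. The highest level was 13.3 CPM, in young replicate 1. The count of 0 in HFHF-old replicate 2 allows up to 9.91 CPM, and that in old replicate 2 up to 2.02, for counting error alone.

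**Figure D1:**
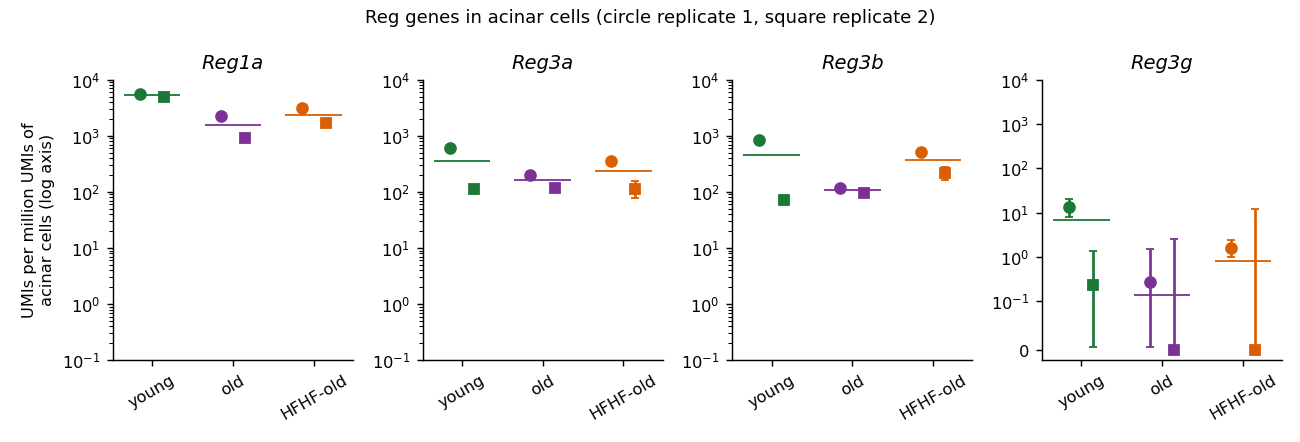
Level of Reg1a, Reg3a, Reg3b and Reg3g in acinar cells, as CPM summed over the acinar cells of a rat, on a log axis (for Reg3g linear below 0.1); points are rats, bars exact 95% Poisson intervals for counting error and lines group means. Both young rats, at 5612 and 4984, lie above all older rats for Reg1a, while for Reg3a the 3 groups overlap.

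Over all genes, edgeR on the UMIs summed over the acinar cells of each rat called 0 of 7057 genes between HFHF-old and old rats (0%), 0 between old and young (0%) and 0 between HFHF-old and young (0%) (adjusted p below 0.05, with the fold change threshold of the study). Of the members, 0 of the 3 tested were called, and Reg3g was below the count filter. Nothing is read from this count, as the rule used these levels. At an unadjusted p under 0.05 there were 611, 161 and 477 genes in the 3 comparisons, and DESeq2 called 0, 0 and 12. With the replicate number as a block, edgeR called 2, 3 and 0 genes. Their names were looked up after the values were seen: the gene models AABR07060872.1 and AABR07065625.1 in both of the first comparisons, and Folr1 between old and young. No member was among them.

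Within the acinar cells, Reg1a was spread differently in young and older rats. In young rats the median cell had 33.1 and 42.7 Reg1a UMIs per 10000, and 96.5% and 99.6% of cells had at least 1 UMI. In old rats the median was 3.90 and 0, with 71.7% and 25.6% of cells positive, and in HFHF-old rats 6.11 and 6.27, with 85.7% and 73.2% positive. The upper end differed less: the 99th percentile was 211 and 162 in young, 264 and 95.3 in old, and 293 and 173 in HFHF-old rats. Old replicate 1 and both HFHF-old rats had a 99th percentile within or above the young values, and old replicate 2 lay below them. These values come from cells of unlike depth. In HFHF-old replicate 2 (56 cells) and old replicate 2 (308 cells) the 99th percentile rests on the few highest cells.

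**Figure D2:**
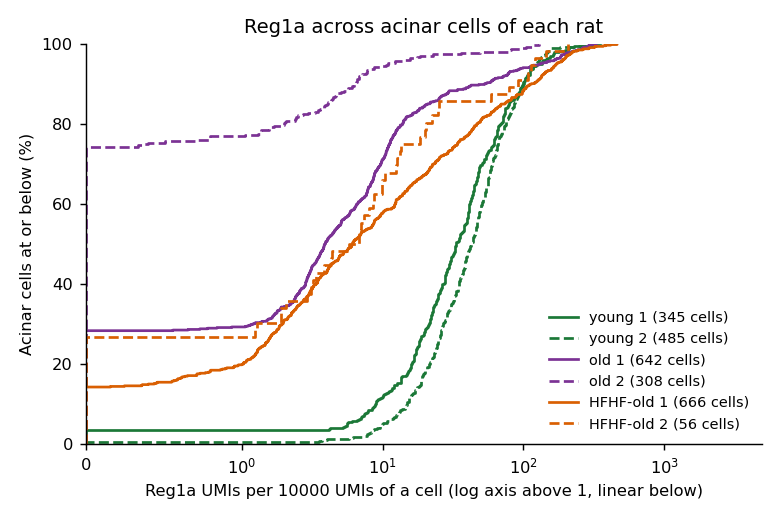
Cumulative share of acinar cells (%) at or below a given Reg1a level (UMIs per 10000 UMIs of the cell, log axis above 1 and linear below), 1 line per rat, solid for replicate 1 and dashed for replicate 2. The young lines lie to the right, with medians of 33.1 and 42.7, and those of the older rats to the left, with medians of 0 to 6.27.

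As depth differed between rats, each acinar cell was thinned to 1000 UMIs. Reg1a was then detected in 89.6% and 94.6% of cells in young, 43.0% and 11.2% in old, and 53.4% and 52.8% in HFHF-old rats. Both young rats lay above the other 4. Immune cells of the same rats, which should lack the gene, showed a Reg1a UMI after the same thinning in 4.09%, 12.9%, 2.97%, 0.426%, 5.72% and 0.248% of cells, in the same order of rats. Their median depth before thinning was 3622 to 8756 UMIs, against 2689 to 10491 in the acinar cells. The acinar share lay above the immune share in 6 of 6 rats. The immune gate set no enzyme limit below 20%, so the immune cells may include doublets with acinar cells. In old replicate 1, immune cells with enzyme shares of 11.1% and 16.8% had 123 and 60 Reg1a UMIs before thinning. In HFHF-old replicate 2, with 53 thinned cells, the Wilson 95% interval of the acinar share was 39.7% to 65.6%.

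The variance of the thinned Reg1a counts was 4.82 and 3.73 times their mean in young rats, 12.1 and 8.52 times in old, and 11.8 and 7.95 times in HFHF-old rats. The 10% of cells with the most Reg1a held 33.2% and 28.5% of Reg1a UMIs in young, 73.0% and 96.8% in old, and 57.9% and 55.3% in HFHF-old rats. This share also depends on a gene's mean count. For the trypsinogen gene Prss2, an enzyme of the gate with a mean of 0.868 to 7.62 thinned UMIs against 0.338 to 5.17 for Reg1a, it was 20.3% to 37.0%, and for the ribosomal protein gene Rpl13, with a mean of 0.519 to 0.963, it was 32.3% to 47.1%. The young shares of Reg1a lay within the range of Prss2, and those of the 4 older rats lay above both genes. In old replicate 2 the Reg1a mean of 0.338 was below all means of both genes, and 11.2% of cells had a UMI. Its share of 96.8% can therefore not be compared with theirs.

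Reg3a and Reg3b were detected in fewer acinar cells than Reg1a in every rat, in shares that rose with depth. After thinning to 1000 UMIs, Reg3a was detected in 10.7% and 6.20% of acinar cells in young, 8.10% and 2.16% in old, and 14.8% and 5.66% in HFHF-old rats. For Reg3b the shares were 7.16% and 4.13%, 5.61% and 2.16%, and 13.0% and 7.55%. Unthinned, Reg3a was detected in 3.25% to 31.7% and Reg3b in 2.60% to 25.8% of the acinar cells of a rat, the most in HFHF-old replicate 1 for both genes. The thinned immune cells had at most 0.649% for Reg3a and 0.324% for Reg3b. The 5 acinar cells with the most Reg3a and Reg3b UMIs held 76.1% and 57.1% of all acinar Reg3a UMIs in young, 31.9% and 93.8% in old, and 39.6% and 91.2% in HFHF-old rats. A single cell of HFHF-old replicate 1 had 1643 Reg3b UMIs.

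How far Reg3a and Reg3b shared cells differed between rats. Of the thinned cells with Reg3a, 16 of 36 and 4 of 30 also had Reg3b in young, 28 of 52 and 4 of 6 in old, and 71 of 98 and 1 of 3 in HFHF-old rats. Across the acinar cells of a rat, the Pearson correlation of log-transformed Reg3a and Reg3b levels was 0.733 and 0.281 in young, 0.767 and 0.779 in old, and 0.896 and 0.562 in HFHF-old rats, over 345, 485, 642, 308, 666 and 56 cells. The cells of a rat share a library and differ in depth, and cells without either gene weigh heavily, so r is a description. Without the top 1% of cells by these UMIs, r was 0.619, 0.243, 0.732, 0.252, 0.881 and 0.271, which lowered it most in old replicate 2 and HFHF-old replicate 2. Cells with either gene numbered 44, 46, 60, 8, 113 and 6, in the same order of rats.

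**Figure D3:**
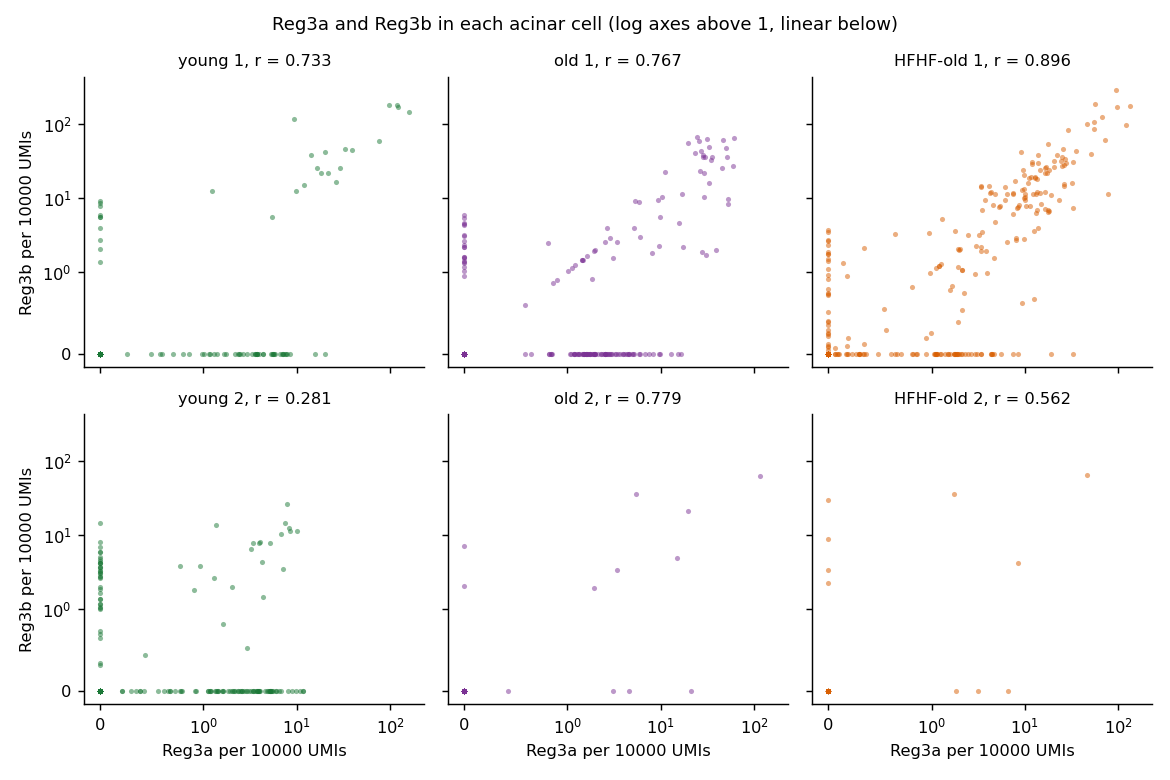
Reg3a against Reg3b in each acinar cell, as UMIs per 10000 UMIs (log axes above 1, linear below), 1 panel per rat with the Pearson r of the log-transformed levels. The correlation was highest in HFHF-old replicate 1 (r = 0.896) and lowest in young replicate 2 (r = 0.281), and most cells of each rat lie at 0 for both.

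Reg1a was higher in the cells with Reg3a or Reg3b. In thinned cells with a UMI of either gene, the mean Reg1a count was 8.91 and 9.33 in young, 12.9 and 6.75 in old, and 13.2 and 8.33 in HFHF-old rats. In cells without either it was 4.00 and 4.73, 0.921 and 0.148, and 1.37 and 1.55. The first value was the higher in 6 of 6 rats, and the gap was the wider in the 4 older rats. Digestive enzymes took similar shares of both kinds of cells, for example 36.0% and 35.1% in young replicate 1 and 46.2% and 46.5% in HFHF-old replicate 1. Cells with either gene were deeper before thinning in 5 of 6 rats, by most in old replicate 2 (median 6982 against 2796 UMIs over 8 and 270 cells).

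Among 549 genes detected in at least 10% of acinar cells of each rat, those most like the summed members were Zg16, Clu, Sycn, LOC286960, Ctrb1, Pnliprp2, LOC312273, Ggh, Tmed11 and Ctrl, ranked by the median Pearson r over 6 rats. The median r ran from 0.230 for Zg16, a zymogen granule protein, to 0.105 for Ctrl, a chymotrypsin-like protease. Clu, a secreted chaperone known to rise in injured epithelia, was positive in all 6 rats, between 0.102 and 0.376, and LOC312273 between 0.030 and 0.292. The other 8 genes were below 0 in at least 1 rat. The sum is mostly Reg1a, and for Reg1a alone Zg16 (median r 0.234) and Clu (0.199) also ranked highest. For Reg3a and Reg3b summed, the highest were LOC286960 (0.212), Clu (0.210) and Ctrb1 (0.166), and Zg16 was not among the top 10. Clu then ran from 0.126 to 0.502. These correlations are weak in sparse counts.

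Outside the acinar cells, the members were read first in immune cells. There, Reg1a was at 31.8 and 135 CPM in young, 29.9 and 6.29 in old, and 56.7 and 2.13 in HFHF-old rats, and 0.0297% to 1.01% of their UMIs came from the 6 enzymes. Set against those enzymes, immune cells held 13.1 and 16.4 Reg1a UMIs per 1000 enzyme UMIs in young, 7.67 and 2.84 in old, and 5.59 and 7.19 in HFHF-old rats. In acinar cells the corresponding ratio was 15.98 and 14.6, 6.61 and 2.76, and 6.47 and 5.72. In both cell types the young rats had the highest ratios and old replicate 2 the lowest. In old replicate 2 the immune ratio was 1.46 without its top 2 cells. The mean immune ratio was 14.7 ± 2.35 (SD, n = 2) for young rats, 5.26 ± 3.42 for old rats and 6.39 ± 1.13 for HFHF-old rats.

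**Figure D4:**
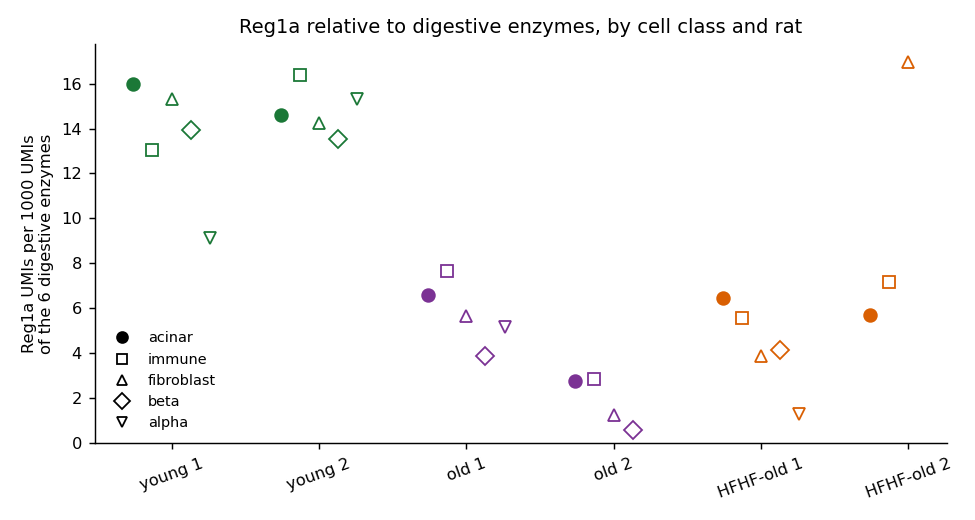
Reg1a UMIs per 1000 UMIs of the 6 digestive enzymes in acinar cells (filled) and in immune cells, fibroblasts, beta cells and alpha cells (open) of each rat, where a class had at least 10 cells and 3 Reg1a UMIs. Acinar and immune cells of a rat lie close together, and the fibroblasts of HFHF-old replicate 2 stand apart at 16.9.

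In fibroblasts the ratio was 15.3 and 14.2 in young, 5.67 and 1.27 in old, and 3.90 and 16.9 in HFHF-old rats. The last value was 5.42 without its top 2 cells. Reg3a and Reg3b in immune cells lay at 0.316 to 1.16 and 0.491 to 0.985 per 1000 enzyme UMIs, which were levels of 0.094 to 4.87 and 0.146 to 5.21 CPM. Unlike for Reg1a, these ratios did not follow the acinar cells. Mean Reg3a ratios of young, old and HFHF-old rats were 0.573, 0.997 and 0.380 in immune and 1.03, 0.476 and 0.567 in acinar cells. For Reg3b they were 0.757, 0.870 and 0.502 in immune and 1.32, 0.318 and 0.908 in acinar cells. The immune mean was the higher in old rats alone.

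Islet cells were read by their hormones. Beta cells, taken as cells with at least 10% hormone UMIs, 3 pan-endocrine UMIs and insulin as the leading hormone, held 13.9 and 13.5 Reg1a UMIs per 1000 enzyme UMIs in young, 3.88 and 0.603 in old and 4.16 in HFHF-old replicate 1. HFHF-old replicate 2 had 4 beta cells and is not given. The values of young replicate 1 and old replicate 2 rest on 16 and 8 Reg1a UMIs. In CPM, Reg1a in beta cells was 4.61 and 617 in young, 60.4 and 0.455 in old and 11.3 in HFHF-old replicate 1. The high value of young replicate 2 came from a class of 2763 cells in which enzymes made up 4.56% of UMIs and in which 3 of 10 pan-endocrine markers were above the other cells, so its label as beta cells does not hold against those markers. Alpha cells, with glucagon as the leading hormone, had 9.13 and 15.3 Reg1a UMIs per 1000 enzyme UMIs in young, 5.17 and 0.211 in old, and 1.31 in HFHF-old replicate 1. In CPM, Reg1a in alpha cells ran from 14.7 to 176 in young and from 0.153 to 15.7 in old rats. It was 8.57 in HFHF-old replicate 1, and the lowest of these values rests on few UMIs. Reg3a in beta cells of the rats other than young replicate 2 was between 0 and 4.71 CPM.

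Ductal cells were few, with 33 in young replicate 1, 42 in old replicate 1 and 200 in old replicate 2, and under 10 in the other 3 rats. In these rats 13 of the 14 duct markers were above the other cells. Most of their Reg UMIs came from single cells. In young replicate 1, 1 cell held 414 of the 417 Reg3b and all 571 Reg3g UMIs of ductal cells, and Reg3a was at 0. That cell also carried 825 UMIs of the enterocyte genes described below. In old replicate 2, 2 of 200 cells held 417 of 419 Reg3a, 285 of 286 Reg3b and 638 of 640 Reg1a UMIs. These 2 cells had enzyme shares of 13.7% and 17.8%, just below the acinar gate. Old replicate 1 had 6 Reg1a UMIs in its 42 ductal cells. Per 1000 enzyme UMIs, Reg1a in the ductal cells of these 3 rats was 66.6, 4.14 and 67.8, above the acinar ratio in young replicate 1 and old replicate 2. Without the top 2 ductal cells of each rat, a choice made after seeing the data that takes out the highest values, it was 9.14, 2.76 and 0.212, which is not compared with the acinar cells.

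Old replicate 2 carried most of its Reg3a transcripts just outside the acinar gate. Of its Reg3a UMIs, 176 were in acinar cells and 1107 outside, and 963 of the latter were in 3 cells with enzyme shares of 13.7% to 17.8%. Of these 3 cells, 2 were the ductal-labelled cells described above, at 13.7% and 17.8%, so their UMIs are the same ones. The other cell, at 17.6%, alone had 546 Reg3a, 488 Reg3b and 451 Reg1a UMIs among 14056. All 3 cells entered the acinar sum when the gate was lowered, where Reg3a of this rat rose to 655 and Reg3b to 524 CPM. These results therefore rest on the same few cells. In the cells of this rat with a 15% to 20% enzyme share (56 cells), Reg3a was at 4672 and Reg3b at 4122 CPM, against 1220 and 684 at 20% to 25% (50 cells). In the first bin, cells at 17.6% and 17.8% held 546 and 159 Reg3a and 488 and 134 Reg3b UMIs, so its levels rest on few cells. Young replicate 2 and old replicate 1 also had more Reg3b below the gate than above it, at 279 against 44.4 and 113 against 18.0. A ductal-labelled cell of young replicate 2 at 16.3% had 147 Reg3b UMIs. Cells of old replicate 1 at 16.8% and 17.6% had 27 and 21. In HFHF-old replicate 1 Reg3b was at 134 below the gate and 562 above it, whereas Reg3a was at 605 below and 406 above. A single cell of this rat below the gate, at 17.5%, had 229 Reg3a UMIs. Young replicate 1 had Reg3b at 253 below and 212 above. In HFHF-old replicate 2 Reg3b was at 0 in 5 cells below the gate and at 375 in 18 cells above it.

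**Figure D5:**
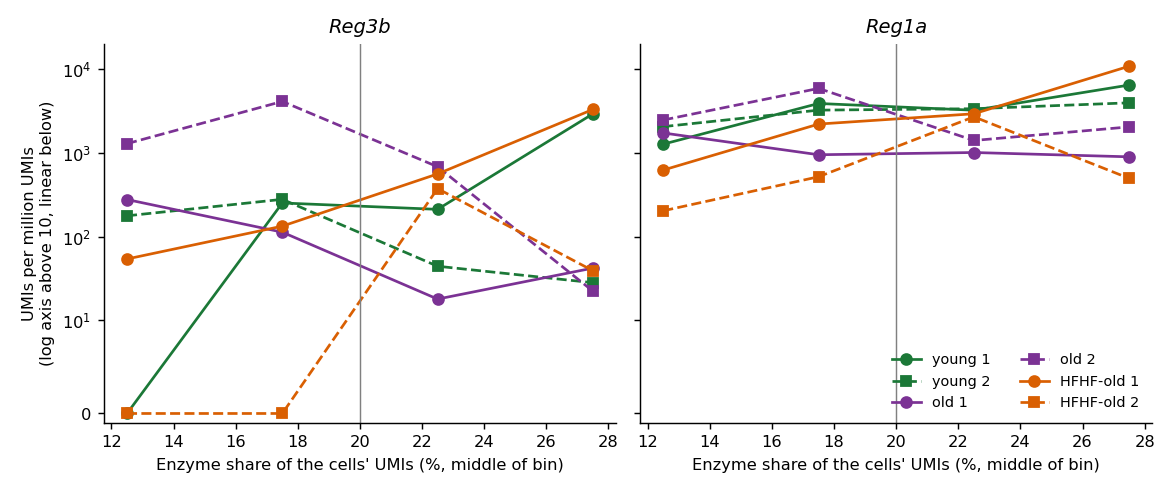
Reg3b and Reg1a (CPM, log axis above 10 and linear below) in cells grouped by the share of their UMIs from the 6 digestive enzymes, in bins of 5%, 1 line per rat; the vertical line marks the 20% gate. Old replicate 2 reaches its highest Reg3b, 4122, in the bin just below the gate, where a single cell had 488 Reg3b UMIs.

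Young replicate 2 also had more Reg3a outside acinar cells (1645 UMIs) than inside (468), spread over many cells: its 3 highest cells held 7.17% of them. Of the 1645 UMIs, 1120 lay in its beta class of 2763 cells, whose label does not hold. That class had 0.858 Reg3a UMIs per 1000 enzyme UMIs, against 0.326 in its acinar cells. A further 141 lay in 394 cells gated as islet cells with Ppy or Pyy leading, at 2.59 per 1000. This label was not checked against pan-endocrine markers. The 28 cells of young replicate 2 with 10 or more Reg3 UMIs outside the acinar gate had a median enzyme share of 8.89%. Those of them led by Ppy or Pyy carried 7 to 11 immune markers each, so their label as islet cells is uncertain.

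Reg3g of young replicate 1 was mostly outside acinar cells. In young replicate 1, 5 cells with 10 or more Reg3 UMIs also carried at least 10 UMIs of the enterocyte genes Fabp1, Rbp2, Lypd8 and S100g, a gene set chosen after these cells had been seen. The 5 cells held 1422 Reg3g and 1222 Reg3b UMIs and no Reg3a, with a median enzyme share of 0.0273%. Acinar cells of the same rat had 20 Reg3g and 912 Reg3a UMIs, so both kinds of cells held Reg3b, with Reg3a counted in the acinar cells alone. Old replicate 2 had 1 such cell with 31 Reg3g UMIs and no Reg3a or Reg3b. Over all cells with these enterocyte genes, 19 cells of young replicate 1 held 1435 of the 1856 Reg3g UMIs outside acinar cells. Without those 19 cells, 392 Reg3a, 749 Reg3b and 421 Reg3g UMIs of that rat lay outside the gate. Of these, 4 cells with a median enzyme share of 7.04% held 271, 481 and 262.

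Other genes of the pathway were given by lists. Of the 22 genes of IL-22 and IL-6 family receptors and STAT3 targets, 14 passed the count filter in acinar cells and 0 were called in any comparison, with median log2 fold changes of 0.14 in HFHF-old against old, 0.25 in old against young and 0.31 in HFHF-old against young (over all genes tested, -0.02, 0.02 and -0.04). Between HFHF-old and young rats the highest were Pim1, a STAT3 target kinase (1.89 ± 0.86, SE, adjusted p = 0.724, edgeR) and Stat3 itself (1.35 ± 0.42, adjusted p = 0.643). The lowest were Cebpb (-0.66 ± 0.76) and Tyk2 (-0.19 ± 0.63). In HFHF-old against old rats the values ran from -0.92 for Cebpb and -0.70 for Cebpd to 1.07 for Pim1 and 1.35 for the kinase gene Jak1. In old against young rats they ran from -0.88 for the receptor gene Lifr and -0.39 for Jak1 to 0.84 for Jak2 and 1.22 for Junb.

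Il22ra1, the IL-22 receptor subunit of epithelia, was read in acinar cells at 7.33 and 5.46 CPM in young, 3.84 and 7.41 in old, and 9.51 and 9.91 in HFHF-old rats, from 3 to 129 UMIs. In immune cells it was at 0.0625 to 0.384. Both HFHF-old rats were above the other 4, though HFHF-old replicate 2 had 3 UMIs. In acinar cells Il6st, the shared receptor of the IL-6 family, was at 2.67 and 1.66 in young and 1.37 and 0.673 in old rats. It was at 2.73 and 3.30 in HFHF-old rats, the last from 1 UMI, and at 4.38 to 12.0 in immune cells. Extl3, a reported Reg receptor, was at 2.00 and 1.42 in young and 1.10 and 0.673 in old acinar cells. It was at 3.02 and 13.2 in HFHF-old rats, the last from 4 UMIs, and at 5.75 to 9.51 in immune cells. Both HFHF-old rats were thus above the other 4 for these genes too, on 1 to 41 UMIs per rat.

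None of the 10 ligands passed the count filter in acinar cells. Il22 had 27, 1, 0, 0, 13 and 12 UMIs over all cells kept. Il6 was at 17.9 and 1.64 CPM over all cells in young, 10.9 and 7.38 in old, and 50.9 and 11.2 in HFHF-old rats, and Osm, made by leukocytes, was at 9.50 to 22.3 in immune cells. In fibroblasts Il6 was at 47.6 and 9.55 in young, 54.5 and 70.8 in old, and 169 and 120 in HFHF-old rats, with both HFHF-old rats above the other 4. Its part in the Reg levels was not tested. Reg4, a further Reg gene, was at 0 in acinar cells of all 6 rats, and had 194 UMIs over all cells of young replicate 1 and 0 to 9 in the others.

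The 26 acinar injury and metaplasia genes had 20 tested and 0 called. Their median log2 fold change was -0.55 in HFHF-old against old, 0.33 in old against young and -0.10 in HFHF-old against young rats. The metallothionein genes were the lowest in HFHF-old against old rats, at -3.84 ± 1.10 for Mt1 and -2.63 ± 0.92 for Mt2A, with Cd44, a cell surface glycoprotein, at 1.07 and Anxa1 at 0.97. In old against young rats Spp1, which encodes osteopontin, was at 3.42 ± 0.74 (adjusted p = 0.9999, edgeR) and Atf3 at 1.15, and in HFHF-old against young rats Mt1 was at -4.55, Mt2A at -3.82, Anxa1 at 0.85 and Atf3 at 1.66. DESeq2 called Mt2A in this last comparison (-3.99, adjusted p = 0.0179). At an enzyme share of 40%, edgeR gave -4.88 for Mt1 and -4.68 for Mt2A in it. HFHF-old replicate 2 was left out there, so HFHF-old replicate 1 stood alone in its group. Of 18 unfolded protein response genes, all were tested and 0 were called, with medians of 0.09, -0.02 and 0.01 in the same 3 comparisons. Chac1, a target of the PERK branch, was at -2.66 ± 0.69 in old against young and 1.94 ± 0.72 in HFHF-old against old rats. Ddit3 of the same list had the opposite signs in these comparisons, at 1.00 and -1.01, and Trib3 was at -1.69 and 1.21. Xbp1 was at 0.52 in old against young rats and Atf4 at -0.58 in HFHF-old against old rats.

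Of 16 genes of the dissociation response, which tissue digestion is known to induce, 14 were tested and 0 were called. Their medians were 0.00105, 0.85 and 0.97 in the same comparisons, beside 0.02 and -0.04 over all genes tested in the last 2 of them. The heat shock gene Hsph1 was at 2.76 ± 0.50 in HFHF-old against young rats (adjusted p = 0.368, edgeR) and Dnajb1 at 1.83. The lowest of the list in that comparison were Dusp1 at -0.38 and Zfp36 at -0.32. At an enzyme share of 40%, with HFHF-old replicate 2 left out, the immediate early gene Fos was at 2.98 in that comparison. HFHF-old replicate 1 then stood alone in its group. Without HFHF-old replicate 2 at 20%, again with a single HFHF-old rat, Hsph1 was at 3.13 in that comparison. Their part in the Reg levels was not tested. The 6 enzymes of the gate had medians of -0.29, 0.33 and 0.09, the 17 other digestive enzyme and granule protein genes tested -0.52, 0.31 and -0.09, and the 7 acinar transcription factor genes 0.60, -0.31 and 0.29, and in each of these lists 0 genes were called. Pnlip, the pancreatic lipase, was at 1.32 ± 0.52 in old against young rats. With the 6 enzymes and the members left out of the denominator, Reg1a was 8746 and 7623 CPM in young, 3445 and 1349 in old, and 5952 and 2408 in HFHF-old rats, and the young rats still lay above the others.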

How the data were processed

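UMI counts per gene and barcode of 6 libraries (Chromium 3′ v3.1, 1 rat each) were used as deposited by the authors, who made them with Cell Ranger on the rat build Rnor_6.0 according to the submitters' processing notes. The files hold 32883 genes, and no column of per-sample values was set aside. As in the study, barcodes with fewer than 200 genes, with over 25% mitochondrial UMIs, or in the top 1% by gene number were left out. This kept 75201 of 78024 barcodes, fewer than the study kept, and the cause was not tested. No doublet caller was run. Acinar cells, islet classes (10% hormone UMIs and 3 pan-endocrine UMIs), ductal (4 markers), immune (3 markers) and fibroblast cells (4 markers) were gated by fixed markers. The members and gene lists were chosen with earlier results of these data known, so the levels of members are a description. Members stayed in the fit across all genes, and nothing is read from their calls.

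Acinar UMIs were summed per rat and fitted with edgeR 4.0.16 (R 4.3.3; TMM, filterByExpr, quasi-likelihood test, Benjamini-Hochberg adjustment, 3 residual degrees of freedom, 3 groups in 1 fit). DESeq2 1.42.0 was an alternative. Counting intervals are exact Poisson or Wilson intervals at 95% and cover counting error only; a count of 0 allows 3 counts. Cells were thinned to 1000 UMIs with a fixed seed, which left out 0 to 30 acinar cells per rat. The labels number the rats in each group, without saying what a number marks. Deviations of replicate 1 from the group mean correlated at 0.109, 0.140 and 0.221 between groups over 7057 genes, every pair above 0.1. For this reason an alternative fit used the number as a block, while the main fit had none. Such low correlations do not show that the rats are paired. Genes named were the members, the 10 genes most like their sum across acinar cells, and, per list, called genes and the 2 highest and 2 lowest fold changes. Reads shared with near-identical copies, such as Reg3b-ps1, cannot be told apart here, so members are uncertain to that degree. Python 3.11.15 with scipy 1.17.1 was used for the levels. Nothing in the sources used here says whether the 2 rats of a group were processed on separate days.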

Additional observations from a re-analysis of the deposited data

How the results depend on the processing

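The 3 comparisons in the order of the report (diet, age, then both) had 0 called genes each. The counts were 160, 43 and 113 without the filter on low counts, 16, 7 and 13 at an enzyme share of 40% (where HFHF-old replicate 2 was left out with fewer than 10 cells), and 1, 2 and 2 with possible doublets left out. DESeq2 called 12 in HFHF-old against young. The replicate block gave 2 and 3 in the first 2 comparisons and 0 in the last. Leaving out 1 rat gave 0 to 5 in each, with 5 without old replicate 1, without HFHF-old replicate 1 or without HFHF-old replicate 2. No member was called with the block. Log2 ratios of Reg1a ranged from -2.55 to -1.23 (old against young) and from -1.65 to -0.78 (HFHF-old against young) without 1 rat, and were -4.28 and -2.62 with the median over cells. The log2 ratio of Reg3b, HFHF-old against old, ranged from 1.01 to 2.29 without 1 rat and turned to -0.0135 at an enzyme share of 10%. The free RNA ratio of HFHF-old rats read in fibroblasts was 10.4, and the beta cell ratios at a hormone share of 30% were 14.1 in young and 3.85 in HFHF-old rats, where the young value includes the mixed class of young replicate 2. The share of acinar cells with a Reg1a UMI, on average 92.1% for young, 27.1% for old and 53.1% for HFHF-old rats, was 99.3%, 44.6% and 68.9% after thinning to 2500 UMIs and 98.1%, 48.7% and 79.5% unthinned. For Reg3a the average share was 8.47%, 5.13% and 10.2% for young, old and HFHF-old rats and 20.2%, 12.4% and 21.2% unthinned, and for Reg3b 5.65%, 3.88% and 10.3% and, unthinned, 10.3%, 7.45% and 19.2%. Thinning to 2500 UMIs also left out more shallow cells. The causes were not tested. Levels of Reg3a and Reg3b rest on few cells, HFHF-old replicate 2 on 56 acinar cells, and each group on 2 rats. Leaving out the cells with the most Reg3 UMIs, the cells with enterocyte genes or the top ductal cells was chosen after seeing the data.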
